A study of Mus musculus with 6 samples.

Results

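Nuclear receptor coactivators and corepressors were followed in osteocytes, the cells embedded in bone matrix, of mice without estrogen receptor alpha (ERα, encoded by Esr1) in osteocytes and of control littermates. The genes of interest were 5, the coactivators Ncoa1, Ncoa2 and Ncoa3 and the corepressors Ncor1 and Nrip1, read through every probe set that the platform annotation gives to exactly 1 of them. The annotation held 15 such probe sets among 45101 on the array, 3 for Ncoa1, 4 for Ncoa2, 2 for Ncoa3 and 6 for Nrip1. No probe set was given to Ncor1, which was not analysed here, so 4 of the 5 genes have values.

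Total RNA was measured on 3 control and 3 knockout Affymetrix GeneChip arrays. The mice were females of strain C57/BL6, aged 10 to 12 days. Both groups carried Dmp1-GFP, a green fluorescent marker driven by the promoter of a gene of mature bone cells, and calvarial cells from fractions 4 to 6 of 6 digestions were sorted for it. The knockout is named ERαΔOcy/ΔOcy in the extraction protocol and its counterpart ERαflox/flox, while the sample labels call the controls wild type. Neither the driver of the deletion nor the Cre status of the controls is given in the sources used here; an effect of Cre and of ERα loss cannot be told apart. The design text states that RNA was not pooled, and the protocol speaks of pooled calvarial tissue, so arrays of a group may share animals and p-values measure the spread between these arrays only.

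Ncoa1, Ncoa2 and Ncoa3 form the p160 family of steroid receptor coactivators (SRC-1, SRC-2 and SRC-3). They bind the ligand-occupied receptor through short leucine-rich motifs and bring histone acetyltransferases and arginine methyltransferases to the gene. Ncor1 is the scaffold of a complex that carries the deacetylase Hdac3 to receptors without activating ligand. Nrip1, also known as RIP140, binds receptors that do carry ligand and represses through deacetylases and CtBP proteins. In cultured breast cancer cells Nrip1 is a well-known direct target of ERα, and its protein in turn limits ERα activity.

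The start sites of Nrip1 are shown because that gene is the member best known as an ERα target and these mice lack the receptor. Sequences came from RefSeq on build GRCm38.p6, which held 5 start-site windows for 3 members, Ncoa1, Ncor1 and Nrip1. Each run covers the 250 bases before a start site, 5′ to 3′ on the minus strand, in lower case, with capitals for the GGTCA core of an estrogen response element or for the GC box GGGCGG, searched on both strands.
Nrip1, chr16:76373828-76374077: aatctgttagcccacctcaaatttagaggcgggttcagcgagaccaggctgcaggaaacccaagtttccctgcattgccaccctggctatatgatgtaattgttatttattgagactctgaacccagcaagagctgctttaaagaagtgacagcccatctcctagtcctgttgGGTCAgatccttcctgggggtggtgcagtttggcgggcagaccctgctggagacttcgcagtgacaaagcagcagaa
Nrip1, chr16:76373050-76373299: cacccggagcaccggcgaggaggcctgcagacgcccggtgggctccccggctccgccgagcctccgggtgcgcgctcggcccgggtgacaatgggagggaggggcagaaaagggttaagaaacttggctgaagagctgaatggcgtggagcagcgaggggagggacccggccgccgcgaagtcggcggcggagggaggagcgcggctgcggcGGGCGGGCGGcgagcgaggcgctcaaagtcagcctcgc
The upstream window held 1 GGTCA core, whose 5′ base lay 77 bases before the start site, and the downstream window held 2 overlapping GC boxes. The Ncoa1 window held 7 GC boxes and 0 cores. The palindrome GGTCANNNTGACC was in none of the 5 windows and in 0.0639% of the 32851 windows of the same length in the table. A GGTCA core stood in 35.2% and a GC box in 32.7% of them, so these matches describe the letters only.

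Values below run in the order of replicates 1, 2 and 3. The deposited values are 1 linear signal per probe set and array, and they were quantile normalised as log2(signal + 16), and fold changes below, taken on this scale, are too small for dim genes. Knockout was compared with control by limma over 10916 genes, each read by its brightest probe set, and over 27022 probe sets. No gene passed an adjusted p under 0.05 in either direction (0% higher, 0% lower), while 5.85% of genes were higher and 4.69% lower at an unadjusted p under 0.05. Array medians of the deposited signal lay between 18.7 and 28.6, with knockout replicate 3 the highest. The osteocyte genes Dmp1 and Phex had signals of 5637 to 7983 and of 1776 to 2385 over the 6 arrays, while Fgf23 was at 0.5 to 10.4. Sost and Mepe, also on the osteocyte list, were at 54.4 to 147.3 and at 14.3 to 60.7. The osteoblast gene Col1a1 was at 10818 to 12634. Since the cells were sorted for Dmp1-GFP, the Dmp1 signal is no independent check of the cell type. Skeletal muscle genes did not stand alike in the arrays: the signals of 16 markers summed to 211 in control replicate 2, to 38886 and 32786 in the other controls, and to between 4783 and 22442 in the knockout arrays. In such sorted populations fewer cells of a type and less RNA per cell cannot be told apart. The targeted gene Esr1 is read by 3 probe sets, of which the brightest had signals of 115.4, 94.1 and 83.3 in controls and 81.5, 76.1 and 123.8 in knockouts, the next 35.4, 24.1 and 19.7 against 16.3, 21.0 and 43.4, and the dimmest 20.2, 11.6 and 13.3 against 1.0, 1.0 and 2.5. The position of these probe sets against the deleted part of Esr1 was not stated, so they do not check the labels.

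With each gene read by its brightest probe set, Ncoa3 was the member with separated groups after normalisation. It encodes SRC-3, the coactivator also known as AIB1 for its amplification in breast cancer. Its brighter probe set, 1448027_at, had deposited signals of 111.6, 115.8 and 103.5 in the controls against 148.7, 149.5 and 183.3 in the knockouts. All 3 knockout arrays lay above all 3 controls, both in these signals and after normalisation. After normalisation, groups separated in that direction in 9.23% of tested genes, and the share in the deposited signals was not computed.

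After normalisation the log2 level of Ncoa3 was 7.05 ± 0.11 over the controls (SD, n = 3) and 7.38 ± 0.06 over the knockouts (SD, n = 3). The difference was 0.33 ± 0.11 (SE), or 1.26-fold with a 95% interval of 1.06 to 1.50. It had an unadjusted limma p of 0.0150 and did not pass after adjustment (limma adjusted p = 0.377). Of the tested genes, 6.02% had a higher difference. The interval excludes 0 only before adjustment over all genes.

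The dimmer Ncoa3 probe set, 1422737_at, did not show this pattern. It was annotated from a RefSeq mRNA of the gene, with signals of 61.4, 50.9 and 59.2 in control and 59.9, 64.1 and 71.1 in knockout arrays. Its groups overlapped, and the log2 difference was 0.01 ± 0.14 (SE), with a 95% interval of -0.30 to 0.33 (limma over probe sets, adjusted p = 0.985). Within an array, the brighter probe set lay above the dimmer by 0.67 to 0.98 in control and by 1.04 to 1.17 in knockout arrays on the log2 scale. This within-array gap differed by 0.32 between genotypes, with groups that did not overlap (exact 2-sided permutation test, p = 0.1, which is the lowest value possible here, and 0.9 adjusted over 9 such pairs of probe sets). When all probe sets of a gene were averaged, the Ncoa3 value fell to 0.17 ± 0.10 (SE), with overlapping groups (limma adjusted p = 0.604).

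Markers of another cell type moved the same way as the brighter Ncoa3 probe set. The signals of 12 chondrocyte markers, all with a probe set and 0 of them at 0 on every array, summed to between 4552 and 6873 in control and to between 8406 and 10928 in knockout arrays. Among the controls the sum was highest in control replicate 1, where Ncoa3 was lowest. Of 12 pericyte and smooth muscle markers, 11 were lower and 1 higher in the knockouts. The part of either list in the Ncoa3 difference was not tested. Control replicate 2, nearly without muscle signal, had the highest Ncoa3 level of the controls at 7.15, against 6.93 and 7.07 in control replicates 1 and 3. With 1 array left out the difference ran from 0.27 without control replicate 1, the lowest control, to 0.38 without control replicate 2. The limma adjusted p was 0.407 and 0.153 in these fits and at most 0.751 in the others. Without knockout replicate 2 the difference was 0.31, and the unadjusted limma p rose to 0.0537.

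**Figure D1:**
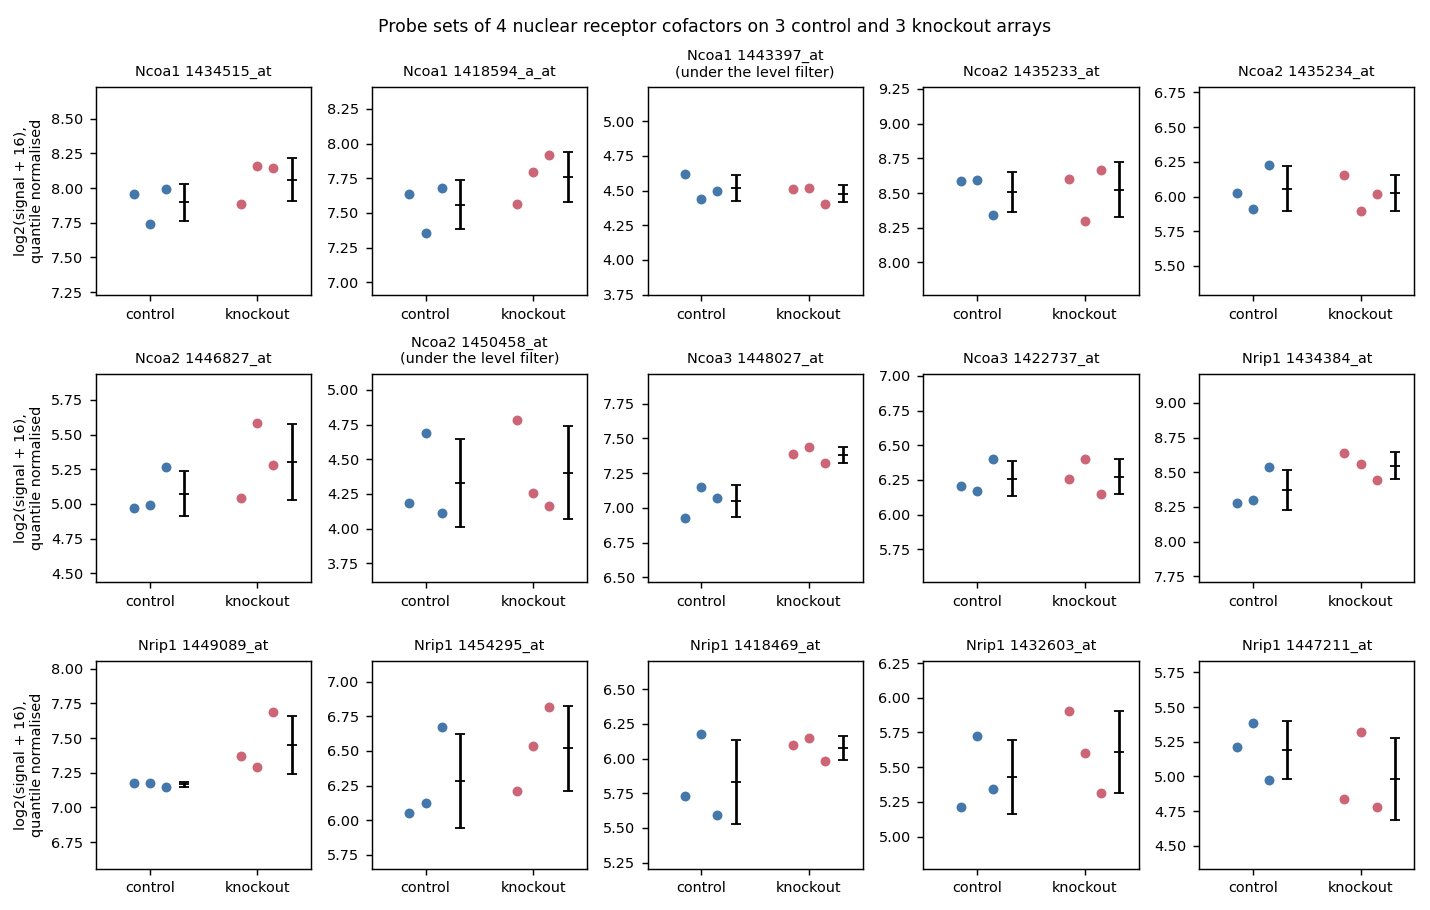
Levels of the 15 probe sets as log2(signal + 16) after quantile normalisation (vertical axis, the same span in every panel), with replicates 1 to 3 from left to right in each group and bars for the mean ± SD. Ncoa3 1448027_at and Nrip1 1449089_at are the panels where all knockout points lie above all control points.

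Nrip1 is read by the most probe sets, and 5 of its 6 had a positive difference. The brightest, 1434384_at, had signals of 310.3, 279.4 and 311.0 in the controls against 374.0, 344.7 and 417.9 in the knockouts. These deposited signals did not overlap between genotypes. The share of all probe sets separated on that scale was not computed, and the median tested gene was 0.14 higher in knockouts there. After quantile normalisation the groups of 1434384_at overlapped, with control replicate 3 at a log2 level of 8.54 and knockout replicate 3 at 8.44.

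The normalised level of this Nrip1 probe set was 8.37 ± 0.14 over the controls (SD, n = 3) and 8.55 ± 0.10 over the knockouts (SD, n = 3). The difference was 0.17 ± 0.11 (SE), or 1.13-fold with a 95% interval of 0.944 to 1.35 (limma adjusted p = 0.607). With the deposited scaling it was 0.32, where the median of all tested genes was 0.14. In 18.6% of tested genes the difference was higher than in Nrip1. When its probe sets were averaged, the Nrip1 value was 0.15 ± 0.09 (SE), with groups that did not overlap (limma adjusted p = 0.632). The share of all genes separated under averaging was not computed.

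The next brightest probe set, 1449089_at, was annotated from a RefSeq mRNA of Nrip1. Its log2 levels were close together in controls, at 7.17, 7.18 and 7.14, and lay at 7.37, 7.29 and 7.68 in knockout arrays. The groups did not overlap, as in 9.41% of tested probe sets, and the difference was 0.28 ± 0.14 (SE, limma over probe sets, adjusted p = 0.504). In the deposited signals control replicate 1 at 135.5 and knockout replicate 2 at 134.2 overlapped. The highest value in both forms was that of knockout replicate 3, whose array median was also the highest. Without that array the difference was 0.17.

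Of the other Nrip1 probe sets, 1418469_at shares its annotated record with 1449089_at, and 1432603_at shares one with 1454295_at. Probe set 1418469_at had log2 levels of 5.73, 6.17 and 5.60 in control and 6.10, 6.15 and 5.98 in knockout arrays. Control replicate 2 stood above every knockout array. The deposited signals of this probe set did not overlap, at 27.9 to 51.2 in control and 51.4 to 61 in knockout arrays. On that scale the median tested gene was also higher in knockouts. The normalised difference of 1418469_at was 0.24 ± 0.18 (SE). Probe set 1454295_at differed by 0.24 ± 0.21 and 1432603_at by 0.18 ± 0.20 (SE). These values moved with single arrays: 1454295_at ran from 0.087 without knockout replicate 3 to 0.43 without control replicate 3, and 1432603_at from 0.029 without knockout replicate 1 to 0.33 without control replicate 2. For 1418469_at the range was 0.12 to 0.42, without control replicates 3 and 2. Both 1454295_at and 1432603_at had control arrays within the knockout range: control replicate 3 was high for 1454295_at, at 6.67, and control replicate 2 for 1432603_at, at 5.73. The dimmest, 1447211_at, went the other way, with signals of 22.0, 23.8 and 13.2 in control and 12.1, 22.1 and 14.8 in knockout arrays and a difference of -0.21 ± 0.20 (SE), or -0.11 without knockout replicate 3 and -0.39 without knockout replicate 2. None of these 4 passed the limma test over probe sets, with adjusted p between 0.661 and 0.800.

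Ncoa1 encodes SRC-1, which serves estrogen, progesterone, glucocorticoid and thyroid hormone receptors. Its brightest probe set, 1434515_at, had signals of 244.8, 183.0 and 208.8 in the controls against 215.3, 255.0 and 335.2 in the knockouts. The groups overlapped: knockout replicate 1 lay below control replicate 1. The log2 level was 7.90 ± 0.13 over the controls (SD, n = 3) and 8.06 ± 0.16 over the knockouts (SD, n = 3).

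The Ncoa1 difference was 0.17 ± 0.12 (SE), or 1.12-fold with a 95% interval of 0.920 to 1.37 (limma adjusted p = 0.668). Control replicate 2 was the lowest array for Ncoa1, and without it the difference was 0.09. Without knockout replicate 1, the lowest of the knockouts, it was 0.26. With the deposited scaling it was 0.31, against 0.14 for the median gene, and averaging its probe sets gave 0.11. The second probe set, 1418594_a_at, ranked the arrays much the same way, with signals of 192.2, 136.1 and 164.3 in control and 169.7, 195.4 and 284.9 in knockout arrays. Its difference was 0.20 ± 0.14 (SE), or 0.099 without control replicate 2, and the gap between both probe sets within an array was 0.31 to 0.38 in control and 0.22 to 0.37 in knockout arrays on the log2 scale. The third, 1443397_at, had signals of 5.2 to 9.0 on the 6 arrays, under the level filter, and was not tested.

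Ncoa2 encodes SRC-2, known as GRIP1 for its binding to the glucocorticoid receptor. It was the member with the smallest difference. Probe set 1435233_at had signals of 384.0, 347.3 and 269.0 in the controls against 364.2, 282.5 and 496.9 in the knockouts. The groups overlapped over most of their range. Control replicate 3 and knockout replicate 2 were the low arrays of their groups.

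The log2 level of Ncoa2 was 8.51 ± 0.14 over the controls (SD, n = 3) and 8.52 ± 0.20 over the knockouts (SD, n = 3). The difference was 0.01 ± 0.13 (SE) with a limma adjusted p of 0.982, and the 95% interval ran from 0.815-fold to 1.25-fold, so changes larger than these lie outside it. The sign turned with single arrays, to -0.07 without control replicate 3, -0.02 without knockout replicate 1 and -0.06 without knockout replicate 3. The value was 0.13 without knockout replicate 2, 0.16 with the deposited scaling and 0.07 when its probe sets were averaged.

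The remaining Ncoa2 probe sets were dim. Probe set 1435234_at, from the same annotated record as 1435233_at, had signals of 40.3 to 52.1 in control and 40.4 to 63.2 in knockout arrays, with a difference of -0.03 ± 0.15 (SE). Its sign turned with the deposited scaling, to 0.10. Probe set 1446827_at had signals of 14.9 to 19.2 in control and 16.4, 29.6 and 29.7 in knockout arrays, with knockout replicate 1 inside the control range and a difference of 0.23 ± 0.19 (SE), or 0.086 without knockout replicate 2 and 0.35 without knockout replicate 1. Probe set 1450458_at lay at 1.1 to 11.2 on the 6 arrays and was under the level filter.

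**Figure D2:**
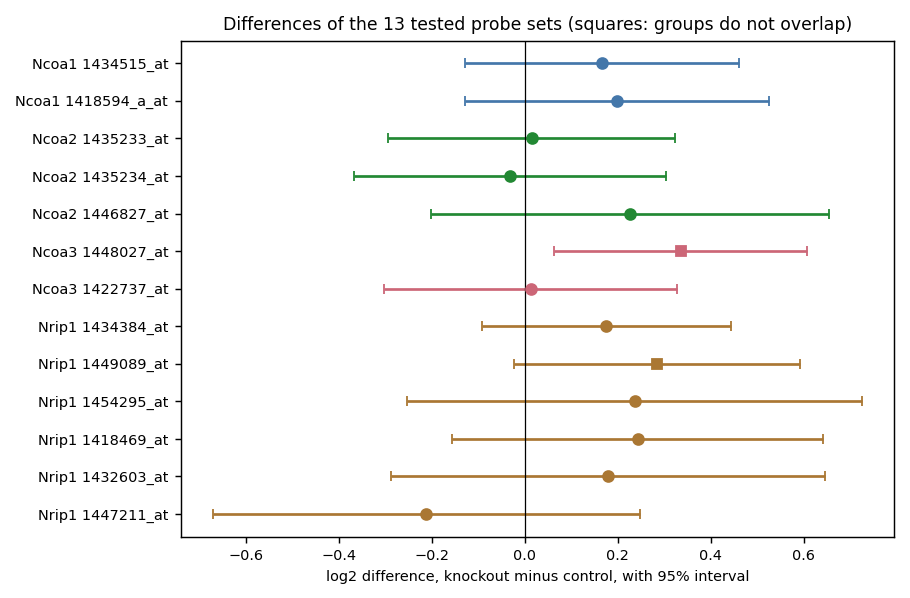
Log2 differences between knockout and control (horizontal axis) with 95% intervals from limma for the 13 tested probe sets, coloured by gene. The interval of Ncoa3 1448027_at lies above 0, from 0.06 to 0.61, and the other 12 include 0.

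Of the 15 probe sets, 13 passed the level filter and 2 did not. Among those tested, 11 had a positive and 2 a negative difference, while 49.8% of all tested probe sets were positive. Probe sets of a gene read the same transcripts and some share an annotated record, so the 13 are not independent values. Among the 4 genes, 1 (Ncoa3) had an unadjusted limma p under 0.05 and 0 passed after adjustment. Their median difference was 0.17, against -0.01 over all 10916 tested genes. The members' levels cannot be ranked against each other, because probe sets bind with different strength.

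The 4 genes varied to different degrees between arrays of a group. The pooled SD within groups was 0.09 for Ncoa3, 0.12 for Nrip1, 0.15 for Ncoa1 and 0.17 for Ncoa2 on the log2 scale, against a median of 0.17 over tested genes. A larger SD was found in 86.3% of tested genes for Ncoa3, 71.5% for Nrip1, 59.4% for Ncoa1 and 46.7% for Ncoa2. Ncoa1 was lowest in control replicate 2, Ncoa2 in knockout replicate 2, and Ncoa3 and Nrip1 in control replicate 1. The highest array was knockout replicate 2 for Ncoa1 and Ncoa3, knockout replicate 1 for Nrip1 and knockout replicate 3 for Ncoa2. The skeletal muscle markers stood lowest in control replicate 2, as Ncoa1 did, and the part of muscle RNA in the Ncoa1 level was not tested. The signals of 10 macrophage and osteoclast markers, 0 of them at 0 on every array, summed to 5757 in control replicate 1, where Ncoa3 and Nrip1 were lowest, to 11276 and 9496 in the other controls and to between 10928 and 11297 in the knockouts. Their part in the Ncoa3 and Nrip1 levels was not tested. In control replicate 2, Ncoa2 and Nrip1 stood at 0.08 above and 0.16 below their means over the arrays.

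**Figure D3:**
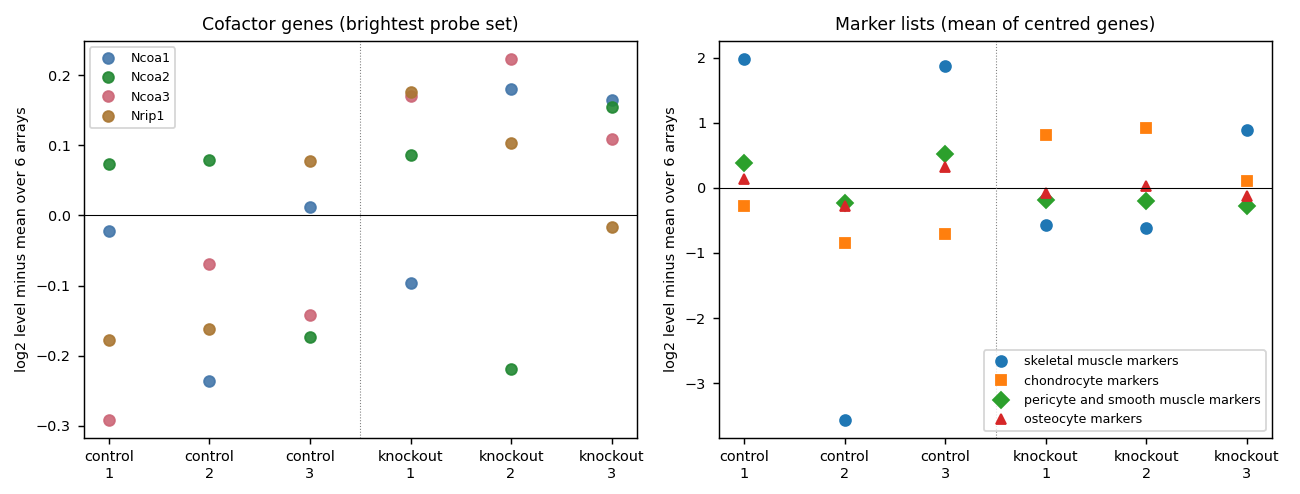
Left, log2 level of each cofactor gene on each array minus its mean over the 6 arrays (brightest probe set). Right, the mean of such centred levels over the tested genes of 4 marker lists, on a wider axis; skeletal muscle markers span -3.56 (control replicate 2) to 1.98 (control replicate 1), while the cofactors stay between -0.29 and 0.22.

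The tested genes most like each member were found as those with the smallest root mean square difference between centred log2 profiles over the 6 arrays, a description over few arrays with no test. For Ncoa3 these were Plod3, a lysyl hydroxylase of collagen, at 0.029, and Plekhh3 at 0.030, where the median gene lay at 0.245. For Nrip1 they were Ppan, a factor of ribosome assembly, at 0.037, and Phldb1 at 0.044. For Ncoa1 they were Uqcr10, a subunit of respiratory complex III, and Psmb2, a proteasome subunit, both at 0.036. Ncoa2 was closest to Hoxa3, at 0.027, and to Maz, a zinc finger factor, at 0.032. The 4 members had no near gene in common and none was nearest to another member.

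The partners of Ncor1 were measured although Ncor1 was not. Of 6 genes listed for the NCoR complex, among them Cops2, which is not a subunit of it, 5 were tested. With Cops2 counted, 2 had positive and 3 negative differences with a median of -0.06. That median turned positive with the deposited scaling, at 0.072, and without control replicate 2, knockout replicate 1 or knockout replicate 3, at 0.038, 0.012 and 0.0030. All 5 lay between -0.16 and 0.08, and none passed even an unadjusted p under 0.05. Apart from Cops2 these were Gps2 at -0.16, Tbl1xr1 at -0.06, Hdac3 at 0.06 and Tbl1x at 0.08. Gps2, a subunit that holds the complex together, had 6.64 ± 0.16 over the controls (SD, n = 3) and 6.47 ± 0.13 over the knockouts (SD, n = 3). Cops2, also named as a corepressor of thyroid hormone receptors, differed by -0.15 ± 0.13 and Tbl1x, a subunit for the exchange of cofactors, by 0.08 ± 0.12 (SE). The groups overlapped for each of them, and other probe sets of Cops2 and Tbl1x had the opposite sign, up to 0.10 and down to -0.31.

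The cofactors that work beside the members did not pass the test in these arrays either. Of 130 other cofactor genes in 5 lists, 124 were tested, with 75 positive and 49 negative differences, a median of 0.05, and 0 at an adjusted p under 0.05 in limma. An unadjusted p under 0.05 was met by 8 higher and 7 lower genes, 12.1% of them, close to the share of all genes given above for both directions together. Groups did not overlap in 18 higher and 11 lower genes, or 14.5% and 8.87%, against 9.23% and 7.76% of all tested genes. Without control replicate 2, where 0.788% of all genes passed as higher and 1.94% as lower, still 0 members or other cofactors of these lists passed.

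Among coactivators beyond the p160 family, 14 were higher and 15 lower of 29. Rbm39, a splicing factor that coactivates estrogen receptors, had log2 levels of 10.01, 10.14 and 10.28 in control and 10.55, 10.81 and 11.12 in knockout arrays, without overlap (limma adjusted p = 0.256). Its 12 probe sets ran from -0.22 to 1.19. Kat2b, the acetyltransferase PCAF that binds p160 coactivators, was lower without overlap, by -0.22 ± 0.08 (SE, limma adjusted p = 0.425), while its probe sets ran from -0.22 to 0.06. Jmjd1c, a demethylase-like cofactor, differed by 0.26 ± 0.11 (SE).

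Among the corepressors listed with Nrip1, 26 were higher and 11 lower of 37, with a median of 0.08. Lcor, a ligand-dependent corepressor that like Nrip1 binds CtBP proteins, had 6.97 ± 0.07 over the controls (SD, n = 3) and 7.40 ± 0.18 over the knockouts (SD, n = 3, limma adjusted p = 0.350). Bcor and Sin3b, scaffolds of repressor complexes, differed by 0.37 ± 0.11 and 0.32 ± 0.10 (SE). All 3 were picked for the smallest p of the list and had groups that did not overlap. For each at least 1 other probe set was negative, down to -0.14, -0.07 and -0.15. Groups did not overlap in 8 higher and 3 lower genes of the list, against 9.23% and 7.76% of all tested genes. The lower ones included Hr at -0.53 ± 0.19 and Tle3 at -0.32 ± 0.10 (SE). The Mediator subunits, which link receptors to RNA polymerase II, had 19 higher and 14 lower of 33. Med13l and Med24 differed by 0.35 ± 0.11 and 0.50 ± 0.16, and Med18 by -0.45 ± 0.15 (SE). SWI/SNF chromatin remodelling genes had 14 higher and 6 lower of 20, with Dpf2 at -0.27 ± 0.09, Smarca2 at 0.26 ± 0.10 and Pbrm1 at 0.24 ± 0.13 (SE). Each of these 3 also had a probe set of the opposite sign, at 0.52 for Dpf2, -0.19 for Smarca2 and -0.20 for Pbrm1.

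**Figure D4:**
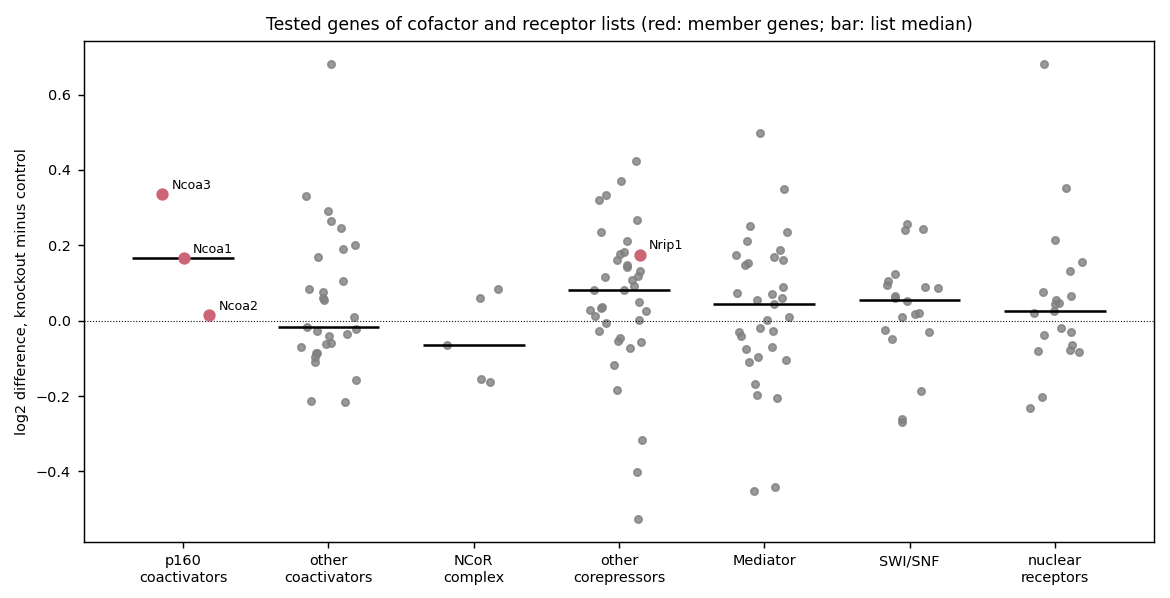
Log2 difference between knockout and control (vertical axis) for every tested gene of 7 cofactor and receptor lists, with members in red and a bar at each list's median. Ncoa3 at 0.33 lies within the span of the other coactivators, from -0.22 to 0.68. Nrip1 at 0.17 lies within that of the corepressors listed with it, from -0.53 to 0.42.

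The receptors that the members serve were tested for 21 of 41 listed genes, with 12 positive and 9 negative differences and a median of 0.02 that turned negative under 3 settings. Nr1d1, the clock repressor Rev-Erbα that acts through Ncor1, had log2 levels of 5.91, 5.85 and 6.25 in control and 6.65, 6.67 and 6.73 in knockout arrays. The groups did not overlap, and the 1.60-fold difference did not pass after adjustment (limma adjusted p = 0.240). Nr4a1 and Nr4a2, orphan receptors induced by stimuli within minutes to hours, differed by 0.35 ± 0.11 and 0.21 ± 0.12 (SE), and the 6 probe sets of Nr4a2 ran from -0.63 to 0.42.

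**Figure D5:**
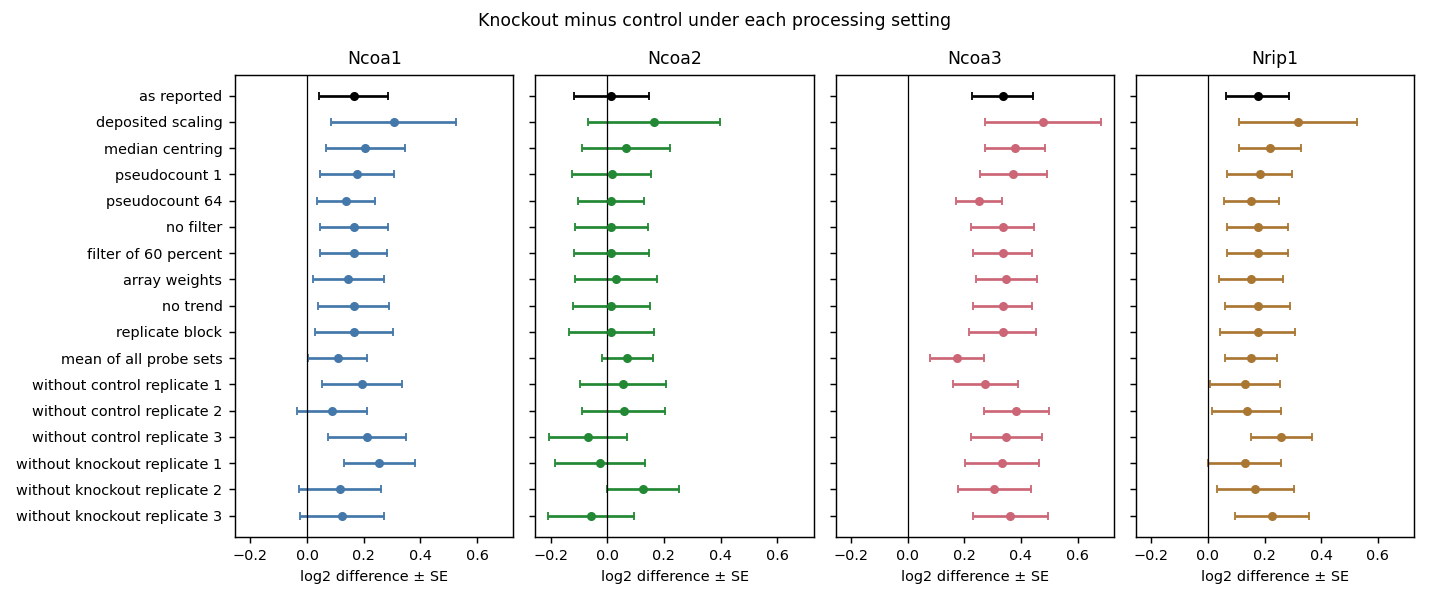
Log2 difference ± SE (horizontal axis) of the 4 genes as reported (black) and under 16 other processing settings. The filter, trend and replicate block settings change the SE only. Ncoa3 stays above 0 throughout, from 0.17 with averaged probe sets to 0.48 with the deposited scaling, where the median of all genes is 0.14; Ncoa2 lies on both sides of 0.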

How the data were processed

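The authors deposited 1 signal intensity for each probe set and array, as a linear value. The submitters' processing notes name GCOS, software of the array maker, with no version. They give neither the background correction nor the probe summary nor the scaling. Without detection calls, dim probe sets have no bound, and precision is limited by 3 arrays per group. The array holds 45101 probe sets, of which 64 controls were dropped. By the platform annotation 34945 had a single gene, 932 several symbols and 9160 no name here, and 34741 received a current symbol from the RefSeq gene table (GRCm38.p6).

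Values were taken as log2(signal + 16) and quantile normalised, because medians of the arrays spanned 0.36 in log2. A gene (18194 in all) was read by its brightest probe set. The lowest 40% by mean were removed, below a log2 level of 5.37 for genes and 4.83 for probe sets. The groups were compared with limma 3.58.1 in R 4.3.3 (lmFit, then eBayes with trend; no covariate; 2-sided; Benjamini-Hochberg at 0.05), and the steps were tested on simulated data. The members and lists were chosen with earlier results of these data known. Named genes are the members and Esr1 with all probe sets, the 3 tested genes with the smallest p in each list, and the 2 nearest profiles per member. Hdac3, Tbl1xr1, Hr and Tle3 were added to show the rest of their lists. Dmp1, Phex, Fgf23, Sost and Mepe of the osteocyte list and Col1a1 of the osteoblast list describe the cells. Scaling, pseudocount, filter, trend, array weights, replicate block, choice of probe set and single arrays were varied.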

Additional observations from a re-analysis of the deposited data

How the results depend on the processing

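Ncoa1, Ncoa3 and Nrip1 kept a positive difference under all 16 alternative settings, and none of the 4 genes passed the limma threshold under any (lowest adjusted p = 0.153, Ncoa3 without control replicate 2). The filter, trend and replicate block settings cannot change a difference, and every setting reuses the same arrays, so these are not independent repeats. Ncoa2 and its probe set 1435233_at ran from -0.068 to 0.13 with 1 array left out. Among member probe sets, 1435234_at of Ncoa2 turned to 0.10 with the deposited scaling and 0.0011 with median centring and ran from -0.11 to 0.056 with 1 array left out, and 1422737_at of Ncoa3 ran from -0.053 to 0.085 with 1 array left out; the cause was not tested. The number of genes called higher was 30 with the deposited scaling, 1 with median centring and 0 to 86 with 1 array left out, and of genes called lower 0 to 212. For probe sets these were 68, 5 and 0 to 210 higher, with 2 lower under the deposited scaling and 0 to 310 lower with 1 array left out. The highest values belong to the fit without control replicate 2, and the cause was not tested. The deposited scaling moved the median of all tested genes from -0.01 to 0.14. With the replicate number as a block 0 genes were called, and Ncoa3 had an adjusted p of 0.635. Same-numbered arrays deviated from their group means with correlations of -0.38, 0.10 and -0.04, and control replicate 1 correlated best with knockout replicate 3 (0.42). The replicate numbers are not said to pair animals, and such correlations over 3 arrays per group cannot decide whether they do. Of 112 list medians, 34 moved by more than the spread between arrays. The median changed sign under at least 1 setting in 4 of the 7 lists. Without detection calls, no bound can be given for the 2 member probe sets under the level filter.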
